A study of Mus musculus with 6 samples.

Results

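The growth hormone signalling chain of the liver was examined in mice whose gene for the transcription factor SRF was targeted for deletion in that organ. The set holds 10 genes: the receptors Ghr and Prlr, the kinase Jak2, the transcription factors Stat5a and Stat5b, the feedback inhibitors Socs1, Socs2, Socs3 and Cish, and the repressor Bcl6. Its members were all probe sets of the array whose annotation carries exactly 1 gene symbol, that of one of these genes. There were 22 such probe sets among 45037, and they covered 9 of the 10 genes, out of 18193 genes that are the only symbol of a probe set. Signals of Prlr were not analysed here. RNA came from livers of male mice aged 3 weeks, 3 controls (Srf loxP/+ AlfpCre) and 3 mutants (Srf loxP/loxP AlfpCre), with 1 array per mouse. The mutants carried 2 loxP-flanked copies of Srf and the controls 1, so the controls share the Cre transgene and can also lose a copy; the design text calls the mutant tissue free of Srf. AlfpCre is a transgene in which control elements of the albumin and alpha-fetoprotein genes drive Cre recombinase, which is active in the epithelial cells of the liver. The comparison asks how the transcripts of this signalling chain differ in liver when both copies of Srf are targeted.

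Growth hormone reaches the liver from the pituitary and binds the receptor encoded by Ghr, which has no kinase activity of its own and works through the bound tyrosine kinase JAK2. JAK2 phosphorylates the receptor and the transcription factors STAT5A and STAT5B, which then enter the nucleus and switch on genes such as Igf1, the source of circulating insulin-like growth factor. Cish and members of the Socs family are among the genes that cytokine signals induce, and their products bind receptors or kinases and damp the signal. Bcl6 encodes a repressor that can bind DNA sites shared with STAT factors. In rodents the temporal pattern of growth hormone differs between the sexes and sets many sex differences of liver gene expression.

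The promoters show which members carry the letters that STAT5 binds next to their start sites. RefSeq windows of 300 bases (250 before and 50 after an annotated start, build GRCm38.p6) were found for 9 of the 10 members, 15 windows in all. Socs2 had no such window and was not searched. Both strands were searched for TTCNNNGAA, which reads the same on either strand. It was found in 5 of the 15 windows, those of 4 genes: Bcl6, Cish, Prlr and Socs3. Among all 32851 RefSeq windows, 8.3% held it. The CArG box, the site of SRF, was in none of the 15 windows and in 1.63% of all windows. A match describes these letters and does not show binding. The 4 stretches below are printed because their genes anchor the results: the feedback genes and the repressor with matches, in capitals, and Ghr, whose 2 windows held none.
Cish, chr9:107296409-107296678, plus strand: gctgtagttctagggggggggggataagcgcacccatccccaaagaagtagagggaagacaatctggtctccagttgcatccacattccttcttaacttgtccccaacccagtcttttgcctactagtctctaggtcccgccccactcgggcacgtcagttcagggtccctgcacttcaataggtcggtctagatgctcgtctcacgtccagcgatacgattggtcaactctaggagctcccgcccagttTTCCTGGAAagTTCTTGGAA
Socs3, chr11:117969367-117969616, minus strand: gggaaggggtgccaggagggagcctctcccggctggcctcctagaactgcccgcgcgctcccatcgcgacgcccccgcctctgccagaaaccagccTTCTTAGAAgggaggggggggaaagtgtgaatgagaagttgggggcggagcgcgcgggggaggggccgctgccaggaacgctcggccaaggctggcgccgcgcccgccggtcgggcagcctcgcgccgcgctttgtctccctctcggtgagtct
Bcl6, chr16:23981284-23981533, minus strand: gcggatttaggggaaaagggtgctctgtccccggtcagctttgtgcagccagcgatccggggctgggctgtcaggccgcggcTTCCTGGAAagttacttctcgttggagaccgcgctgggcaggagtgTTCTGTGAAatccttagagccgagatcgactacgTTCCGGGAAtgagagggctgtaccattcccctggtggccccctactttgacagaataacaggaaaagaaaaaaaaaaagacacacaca
Ghr, chr15:3583353-3583602, minus strand: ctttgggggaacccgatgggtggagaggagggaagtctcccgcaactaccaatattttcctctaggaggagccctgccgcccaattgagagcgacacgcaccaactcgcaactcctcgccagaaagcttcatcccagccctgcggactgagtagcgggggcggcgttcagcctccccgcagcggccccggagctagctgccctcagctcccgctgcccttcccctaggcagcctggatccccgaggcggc
The stretch of Cish held 2 matches, the first of them at the annotated start itself. That of Bcl6 held 3 matches, and that of Socs3 held 1, which began 154 bases before the start.

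Some properties of the arrays bear on every value that follows. Signals were scaled to a common mean and put on the log2 scale. A background estimate from receptors of smell and taste lay at 2.87 in controls and 3.04 in mutants. For Actb, Gapdh and Pcx the array carries control probe sets at either end of the transcript, and the mean log2 ratio of the 3' end to the 5' end serves here as an RNA index. A higher index is a sign of shorter RNA. It was 0.914, 0.781 and 1.22 in controls 1 to 3 against 2.18, 1.18 and 1.57 in mutants 1 to 3 (two-sided exact permutation p = 0.2, where 3 against 3 arrays allow no less than 0.1). The brighter Srf probe set (1418256_at) gave 5.31, 5.14 and 5.11 in controls against 4.17, 5.24 and 2.54 in mutants 1 to 3, so mutant 2 lay in the control range. The shared and dimmer one (1418255_s_at) gave 3.29, 0 (the floor) and 1.99 in mutants 1 to 3, beside 3.00 to 3.69 in controls, so there mutant 1 lay in the control range. Neither Srf probe set passed (adjusted p = 0.398 and 0.411, limma). All 7 hepatocyte markers were above background in both groups, and their summed signal ran from 34722 to 38919 in controls and from 44119 to 50515 in mutants. Of these markers 5 were above all controls in all mutants, Apob overlapped and Asgr1 was below all controls. That separation of the 5 depended on the scaling. On the deposited signals Alb, Ttr, Apoa1, Tat and Cps1 each overlapped between the groups. Alb there had 7409, 7653 and 7193 in controls and 6964, 8058 and 6497 in mutants. Summed stellate markers (8 of 8 found) ran from 2686 to 2974 in controls and were 824, 2786 and 1468 in mutants 1 to 3. Among them Col1a1, Col1a2 and Col3a1 were below all controls in every mutant, mutant 2 included. Dcn, Lrat, Reln, Des and Pdgfrb overlapped between the groups. Kupffer and macrophage markers (7 of 7) ran from 1302 to 1880 and were 812, 1465 and 937, endothelial markers (6 of 6) ran from 620 to 896 and were 304, 1231 and 605, and erythroid markers (5 of 6, Hba-a1 and Epb42 below background) ran from 277 to 510 and were 55.4, 387 and 73.8. Summed cholangiocyte markers (4 of 5) ran from 33.9 to 36.7 in controls and from 39.2 to 62.6 in mutants. Only 2 of them were above background in both groups, since the control means of Krt7 and Sox9 were below it. In bulk liver RNA, fewer cells of a type and less RNA per cell cannot be told apart.

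Ghr had lower signal in mutant liver, Socs3 and Socs2 had higher mean signal, and Jak2, Stat5a, Stat5b and Cish had mean log2 differences between -0.47 and 0.42, but no member passed the test. Of the 22 probe sets, 20 passed the filter on dim signal and 2 dim ones of Socs2 did not. Past an adjusted p of 0.05 (limma, Benjamini-Hochberg over 27023 probe sets) there were 0 of the 20, where 0.074% of all probe sets passed. There were 4 lower and 2 higher member probe sets at an unadjusted p under 0.05 (limma). Of all probe sets, 6.18% were lower and 7.6% higher at that level. The lower ones were the 3 of Ghr and 1450381_a_at of Bcl6, and the higher ones were 1416576_at and 1456212_x_at of Socs3. All 3 mutants lay below all 3 controls on 3 member probe sets, those of Ghr (9.36% of all probe sets). They lay above them on 2, the same ones of Socs3 (13.8% of all). Probe sets of the same gene read transcripts of that gene in the same samples, so these are not counts of independent members. The median log2 difference of the 20 was 0.05, beside 0.08 over all probe sets tested.

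Ghr, the receptor, was the member with the clearest separation. The probe set 1417962_s_at, which may also detect related transcripts, gave log2 signals of 11.37, 11.05 and 11.07 in controls 1 to 3 against 6.82, 10.40 and 9.51 in mutants 1 to 3. The groups did not overlap, and mutant 1 was far below the other mutants. Mutant minus control, the log2 difference was -2.26 (SE 0.79, 95% interval -4.07 to -0.44, adjusted p = 0.326, limma), a 4.78-fold lower mean.

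The second Ghr probe set, 1451501_a_at, had 10.90, 10.49 and 10.42 in controls and 8.44, 9.77 and 8.55 in mutants. Here mutants 1 and 3 lay close together, and the spread among mutants (SD 0.73, n = 3) was smaller than on the other probe sets of the gene. Its log2 difference of -1.69 (SE 0.37, 95% interval -2.54 to -0.84) had the smallest adjusted p of all members, 0.192 (limma). The mutant mean was 3.22-fold below the control mean.

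The third, 1451871_a_at, had 9.36, 9.13 and 8.40 in controls and 2.23, 8.10 and 5.70 in mutants. Mutant 1 lay below the background estimate and mutant 2 just under control 3. Its log2 difference was -3.62 (SE 1.24, 95% interval -6.48 to -0.76, adjusted p = 0.326, limma). The 3 probe sets thus shared their direction and the place of mutant 2 nearest the controls, at 1.70-fold, 1.79-fold and 1.82-fold below the control mean. They did not share the size of the difference in mutant 1, which was 20.3-fold on the first and 4.49-fold on the second.

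**Figure D1:**
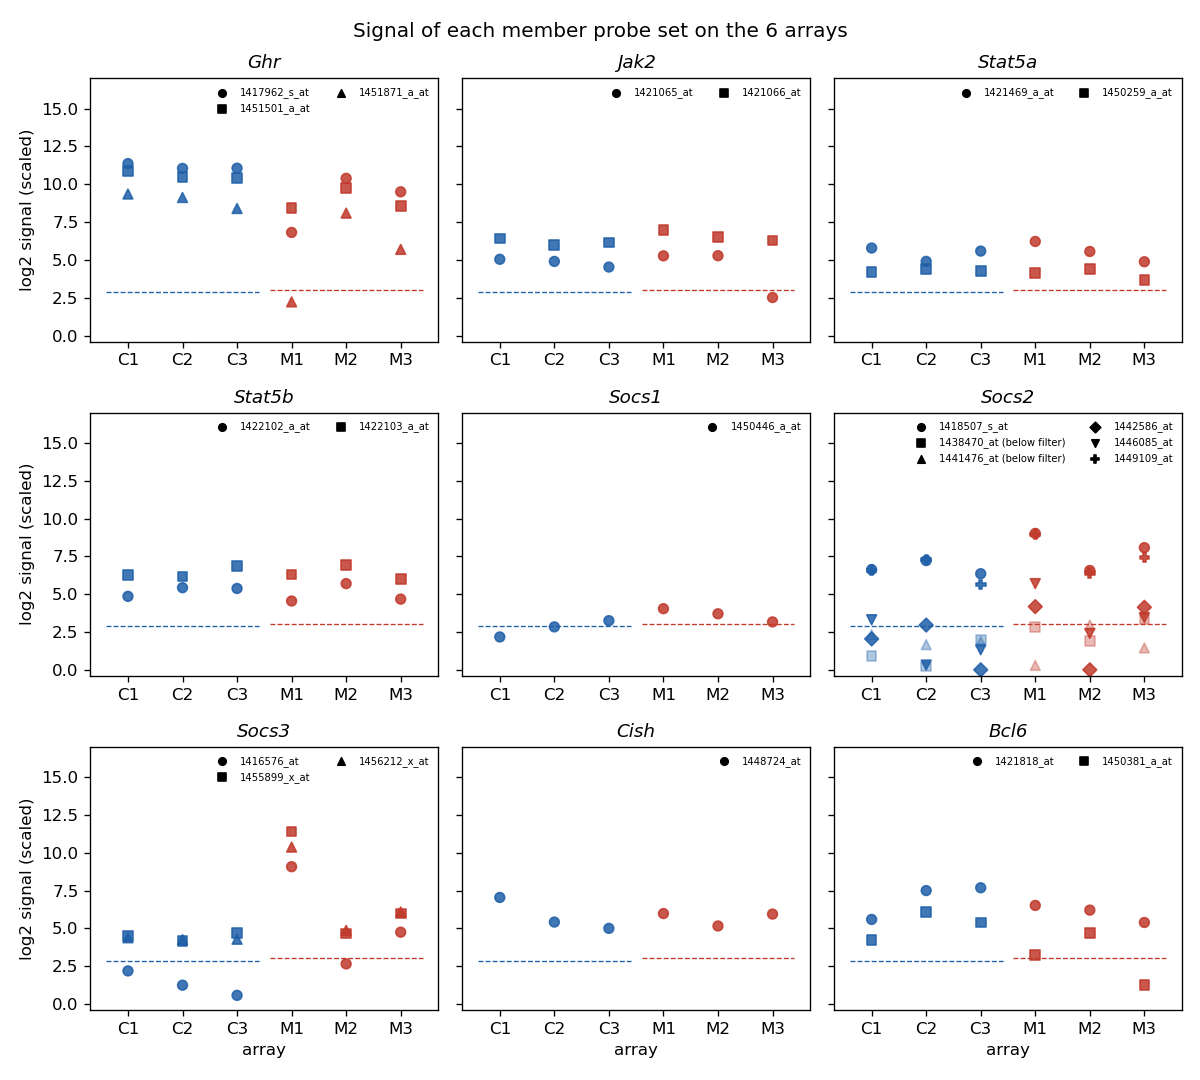
Log2 signal (vertical axis, scaled) on each array (C1 to C3, controls in blue; M1 to M3, mutants in red) for the 22 member probe sets, 1 panel per gene and 1 marker shape per probe set; dashed lines are the background estimates of 2.87 and 3.04. Ghr is lower and Socs3 higher in M1 and M3, while for Jak2 and the STAT5 genes the mutants fall on either side of the controls, with 4 of their 18 values inside the control range.

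Jak2, the kinase bound to the receptor, had mean differences of opposite sign on its 2 probe sets. Its brighter probe set, 1421066_at, had 6.42, 5.98 and 6.16 in controls and 7.0, 6.54 and 6.29 in mutants, with mutant 3 inside the control range. Its log2 difference was 0.42 (95% interval -0.22 to 1.06, adjusted p = 0.478, limma), and on the deposited scaling it was -0.03, where the median of all probe sets was -0.37.

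The other Jak2 probe set, 1421065_at, had 5.05, 4.91 and 4.53 in controls and 5.27, 5.28 and 2.52 in mutants. Mutant 3 was the low array and the other mutants lay above every control. The log2 difference of -0.47 (95% interval -2.11 to 1.17, adjusted p = 0.757, limma) became 0.45 without mutant 3. These intervals do not exclude a 2-fold difference on either probe set.

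Stat5a and Stat5b encode 2 closely related STAT proteins, of which STAT5B carries most of the growth hormone signal in liver. Stat5b on 1422103_a_at had 6.29, 6.17 and 6.86 in controls and 6.30, 6.94 and 6.02 in mutants, with full overlap and a log2 difference of -0.02 (95% interval -0.78 to 0.74, adjusted p = 0.982, limma). On 1422102_a_at Stat5b had 4.86, 5.43 and 5.38 in controls and 4.55, 5.70 and 4.67 in mutants, a log2 difference of -0.25 (95% interval -1.13 to 0.63). The 2 probe sets of Stat5b placed mutant 2 highest among the mutants.

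Stat5a on 1421469_a_at had 5.79, 4.91 and 5.59 in controls and 6.22, 5.56 and 4.88 in mutants. This log2 difference was 0.13 (95% interval -0.82 to 1.07, adjusted p = 0.895, limma), and it was -0.32 on the deposited scaling and -0.10 with median centring. The dimmer probe set 1450259_a_at had 4.19, 4.42 and 4.27 in controls and 4.14, 4.41 and 3.69 in mutants (log2 difference -0.21, 95% interval -0.98 to 0.55). Mutant 3 was the lowest array on each Stat5a probe set.

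Socs2 encodes an inhibitor of growth hormone signalling that growth hormone itself induces. The bright probe set 1418507_s_at, which may be shared with related transcripts, had 6.62, 7.22 and 6.35 in controls and 9.01, 6.57 and 8.07 in mutants. Mutants 1 and 3 lay above all controls, at 4.87-fold and 2.54-fold over the control mean, and mutant 2 lay among the controls. The log2 difference was 1.15 (SE 0.57, 95% interval -0.17 to 2.48, adjusted p = 0.390, limma).

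The second bright Socs2 probe set, 1449109_at, had 6.58, 7.29 and 5.64 in controls and 8.96, 6.40 and 7.43 in mutants, in the same order of mutants (log2 difference 1.09, 95% interval -0.43 to 2.61, adjusted p = 0.446, limma). The other 4 Socs2 probe sets were dim. On 1446085_at, with 3.31, 0.32 and 1.32 in controls and 5.70, 2.41 and 3.45 in mutants, the control mean was below background and the mutant mean at least 1.98-fold above the background estimate. That bound was 3.27-fold without mutant 2, and without mutant 1 there was none, since the mutant mean was then also below background. On 1442586_at each group mean was below background. The probe sets 1438470_at and 1441476_at, with mean log2 signals of 1.88 and 1.76, lay under the filter at 2.10 and were not tested, while 1442586_at, at 2.22, lay just above it.

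Cish, the founding member of the same family, did not share the Socs2 pattern. On its single probe set, 1448724_at, it had 7.04, 5.42 and 5.0 in controls and 5.98, 5.16 and 5.94 in mutants. Control 1 was the highest of the 6 arrays, and all mutants lay between the highest and lowest control. For Cish the log2 difference was -0.13 (95% interval -1.36 to 1.10, adjusted p = 0.924, limma), and without control 1 it was 0.49.

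Socs1, an inhibitor of interferon and other cytokine signals, was near background. Its probe set 1450446_a_at had 2.17, 2.84 and 3.25 in controls and 4.04, 3.70 and 3.17 in mutants, and mutant 3 lay below control 3. The control mean was under the control background estimate (adjusted p = 0.415, limma). The mutant mean was 1.71-fold above that estimate, a lower bound on the fold over controls. Without control 1 the control mean was above background and no such bound applied.

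Socs3, the feedback inhibitor best known from interleukin-6 signalling through STAT3, had higher means on each of its 3 probe sets. Mutant 1 was far above the other mutants on each of them. The probe set 1455899_x_at, which can detect related transcripts, had 4.47, 4.16 and 4.71 in controls against 11.40, 4.65 and 5.98 in mutants. Mutant 1 was 124-fold over the control mean and mutant 3 2.90-fold, while mutant 2 lay inside the control range. The log2 difference was 2.90 (SE 1.48, 95% interval -0.52 to 6.32, adjusted p = 0.397, limma), and without mutant 1 it was 0.87.

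On 1456212_x_at Socs3 had 4.38, 4.26 and 4.28 in controls and 10.37, 4.86 and 6.09 in mutants, with no overlap between the groups. Here the log2 difference was 2.80 (SE 1.20, 95% interval 0.02 to 5.58, adjusted p = 0.362, limma), and 1.17 without mutant 1. On the unshared probe set 1416576_at all controls lay below background, at 2.19, 1.24 and 0.57, and the mutants had 9.07, 2.65 and 4.75, so mutant 2 was also below it. The mutant mean was at least 6.17-fold above the control background estimate (adjusted p = 0.326, limma), a bound that was 1.78-fold without mutant 1 and 16.5-fold without mutant 2. Mutant 1 was the highest and mutant 2 the lowest mutant on each of the 3 Socs3 probe sets. Summed neutrophil markers (6 of 6 found) were 492, 238 and 116 in mutants 1 to 3 and 137 to 325 in controls. S100a8 and S100a9 were higher in mutant 1 than in any control, whereas Ngp, Camp and Elane were lower there than in any control and Ltf was inside the control range. The median log2 difference of these 6 markers was -0.50, and their part in the result was not tested.

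Bcl6, whose product represses transcription, had lower means on each of its 2 probe sets, with controls that differed among themselves. On 1421818_at it had 5.59, 7.50 and 7.68 in controls and 6.52, 6.21 and 5.39 in mutants, and control 1 lay within the mutant range. The log2 difference was -0.89 (SE 0.57, 95% interval -2.21 to 0.44, adjusted p = 0.469, limma). On 1450381_a_at it had 4.24, 6.08 and 5.39 in controls and 3.26, 4.68 and 1.26 in mutants (log2 difference -2.17, SE 0.85, 95% interval -4.13 to -0.21, adjusted p = 0.344, limma). The mutant mean of 1450381_a_at, 3.06, lay just above the background estimate of 3.04, with mutant 3 below it. After log2(signal + 32) its difference was -0.73. Control 1 was the low control and mutant 3 the low mutant on each probe set. Bcl6 is also a gene of germinal centre B cells. The summed B cell markers (4 of 5 found, of which only Cd22 was above background in both groups) were 39.0 to 58.7 in controls against 38.3, 33.6 and 13.1 in mutants 1 to 3, and those of T cells (5 of 5, Cd3e and Cd2 below background) were 35.3 to 53.8 in controls and 28.9 to 51.2 in mutants; their part in the result was not tested.

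**Figure D2:**
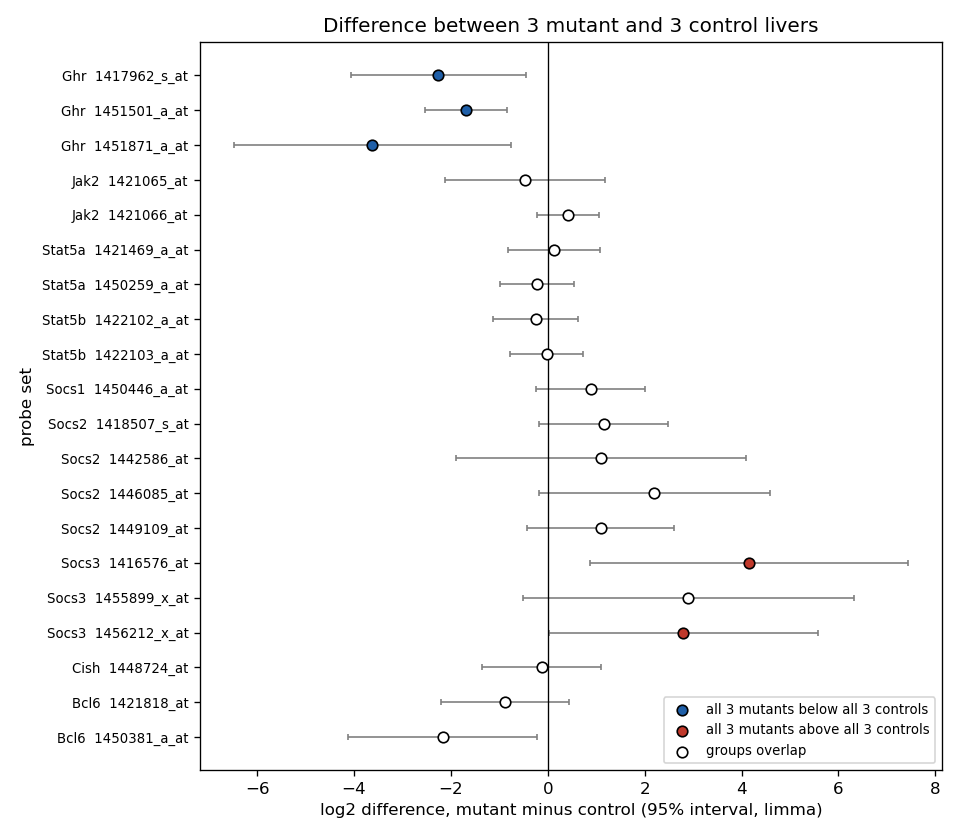
Log2 difference between the means of 3 mutants and 3 controls (horizontal axis) for the 20 tested probe sets (vertical axis), with 95% intervals from limma; filled points mark groups that do not overlap. The 3 Ghr probe sets lie at -2.26, -1.69 and -3.62, Socs3 at 2.80 to 4.16, and the intervals of Jak2, Stat5a, Stat5b and Cish include 0.

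The mutants differed from each other in a regular way. Mutant 2 was the mutant nearest the control mean for 14 of the 20 member probe sets, and mutant 1 the farthest for 14 of 20. Over all 27023 probe sets mutant 2 was nearest for 52.6% and mutant 1 farthest for 57.9%. The order mutant 1, mutant 3, mutant 2 of distance from the controls held on each Ghr and Socs3 probe set and on the 2 bright Socs2 probe sets. The RNA index had the same order, and after adjustment for it the log2 differences of Ghr were -0.18, -0.95 and -0.10 on 1417962_s_at, 1451501_a_at and 1451871_a_at. After the same adjustment Socs3 had 0.74 on 1416576_at, -1.15 on 1455899_x_at and -0.38 on 1456212_x_at, and Socs2 had 0.01 on 1418507_s_at. The index and the genotype moved together on these arrays, and their parts in the result were not separated.

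**Figure D3:**
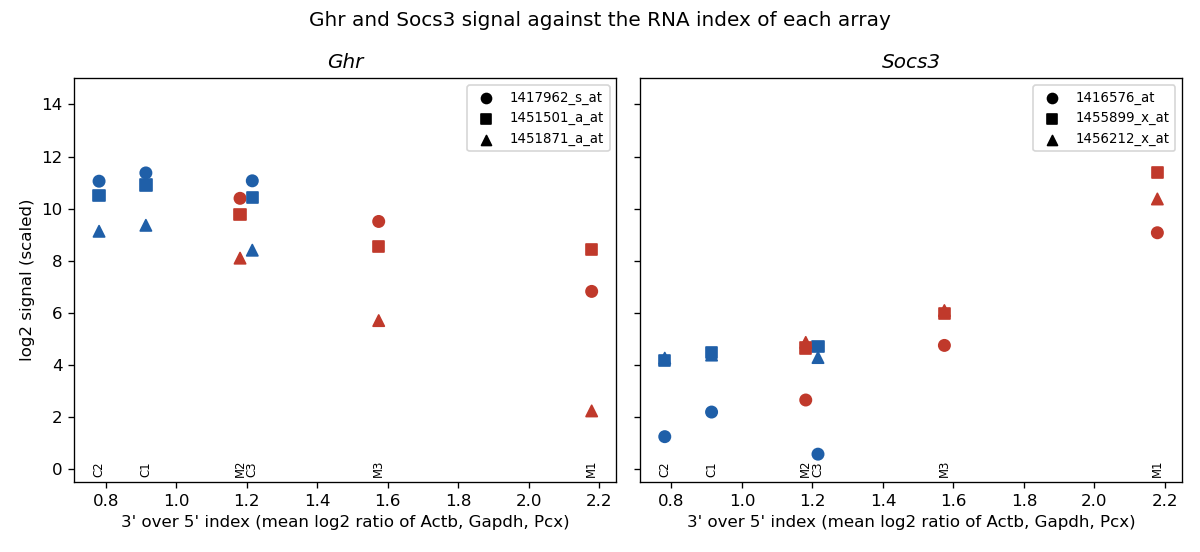
Log2 signal of the 3 Ghr and 3 Socs3 probe sets (vertical axis) against the RNA index of each array (horizontal axis, mean log2 ratio); controls are blue, mutants red, and the array is named at the foot. Mutant 1, with the highest index of 2.18, has the lowest Ghr and the highest Socs3 signals, and mutant 2, at 1.18, lies beside control 3.

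Leaving out mutant 2 brought 2 Ghr probe sets past the threshold. Without it 1451501_a_at had a log2 difference of -2.11 (adjusted p = 0.012, limma) and 1451871_a_at one of -5.0 (adjusted p = 0.0458, limma), while 1417962_s_at had -3.00 (adjusted p = 0.0755, limma). In that fit 579 of all probe sets passed, beside 20 with all arrays. Mutant 2 was the only mutant with an RNA index (1.18) inside the control range (0.781 to 1.22). The mutants left in that fit had 2.18 and 1.57, so genotype and index cannot be told apart there. Without mutant 1 the Ghr differences were -1.21, -1.45 and -2.06 in the order given above, all of the same sign. No other member passed with any array left out.

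**Figure D4:**
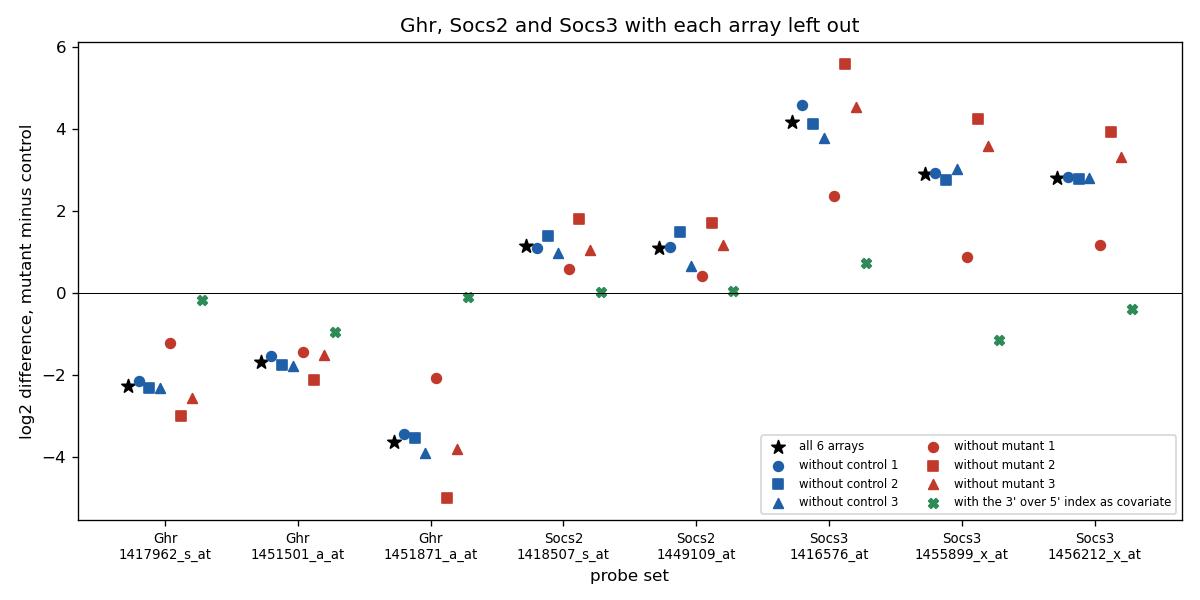
Log2 difference, mutant minus control (vertical axis), for 8 probe sets of Ghr, Socs2 and Socs3 (horizontal axis) with all 6 arrays (star), with each array left out (blue for controls, red for mutants) and after adjustment for the RNA index (green cross). Ghr stays below 0 throughout, between -5.0 and -0.10, and 2 of the Socs3 values turn negative after the adjustment.

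The genes whose pattern over the 6 arrays lay nearest to that of Ghr (1417962_s_at) were taken by the root mean square difference of mean-centred log2 signals. They were Acy3 (1448539_a_at), an aminoacylase, at 0.0865, Ugt3a2 (1423968_at), a glycosyltransferase, at 0.162, and Cenpa (1450842_a_at), the centromeric histone, at 0.183. Acy3 had 3.76, 7.10 and 6.31 in mutants 1 to 3 against a control mean of 7.94 ± 0.11 (SD, n = 3). Cenpa was below background in mutant 1, at 1.67.

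Genes around the pathway were counted in 7 lists of 96 tested genes, each gene standing by its brightest probe set. Over the lists 2 genes rose and 1 fell (limma, adjusted p under 0.05), where 0.114% of all 13144 genes passed, and all 3 are in the lists of sex-biased targets. At an unadjusted p below 0.05, 7.36% of all genes were higher and 7.01% lower. Among related receptors, kinases and STATs none of 18 passed (limma), while 2 higher and 2 lower genes had an unadjusted p below 0.05. Lepr, the leptin receptor of the same receptor class as Ghr, had 2.69, 2.86 and 5.66 in controls and 9.65, 6.97 and 9.67 in mutants, with all mutants above all controls. Its log2 difference was 5.03 (SE 0.96, adjusted p = 0.148, limma) and passed without mutant 2 (5.92, adjusted p = 0.0264). Lifr, the receptor of leukaemia inhibitory factor, had -2.40 (adjusted p = 0.221) and also passed without mutant 2 (-2.92, adjusted p = 0.0386). The mutants left in that fit had RNA indices above every control. Osmr, the oncostatin M receptor, had 1.90 (adjusted p = 0.308) and the interferon receptor chain Ifnar2 had -0.63 (adjusted p = 0.356). The median of the list was 0.04, beside 0.06 over all genes.

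Among other negative regulators none of 16 passed (limma), while 1 higher and 0 lower genes had an unadjusted p below 0.05, and the median was 0.22. Socs4 and Socs7, further members of the SOCS family, had log2 differences of 0.70 and 0.63 (adjusted p = 0.359 and 0.385, limma), and the tyrosine phosphatase Ptpn2 had 0.94 (adjusted p = 0.429). The membrane protein Sirpa had -0.54 (adjusted p = 0.421). Of 15 adaptors and downstream kinases none passed (limma), while 2 higher and 1 lower genes had an unadjusted p below 0.05, with a median of -0.08. Shc1, an adaptor to the MAP kinase route, had -0.73 (adjusted p = 0.332), the docking protein Gab1 0.60 (adjusted p = 0.362), the insulin receptor substrate Irs2 1.72 (adjusted p = 0.326), and Pik3r1, a regulatory subunit of PI3 kinase, -1.33 (adjusted p = 0.385).

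Of 15 liver transcription factors that act with STAT5 or under growth hormone none passed (limma), while 0 higher and 1 lower genes had an unadjusted p below 0.05, with a median of -0.08. The estrogen receptor Esr1 had -1.57 (adjusted p = 0.342), Tox 0.94 (adjusted p = 0.374), Trim24 0.66 (adjusted p = 0.383) and Cebpb 0.57 (adjusted p = 0.408). Hnf4a, a master regulator of hepatocytes, had 0.30 (adjusted p = 0.518).

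Of 9 genes of the IGF system none passed (limma), while 4 higher and 3 lower genes had an unadjusted p below 0.05, and the median was -0.06. Igf1 had 11.53, 11.39 and 10.65 in controls against 8.63, 8.93 and 7.34 in mutants 1 to 3, so its lowest mutant was mutant 3, not mutant 1 as for Ghr. Igfals, the serum carrier of IGF1 with its binding proteins, had 2.29, 5.03 and 4.46 in mutants against a control mean of 8.07 ± 0.55 (SD, n = 3). Igf1, Igfals, Igfbp1 and Igfbp3 had adjusted p-values of 0.0757, 0.0893, 0.0888 and 0.0888 (limma), and all 4 passed without mutant 1 and without mutant 2. In those fits 131 and 579 of all probe sets passed, beside 20 with all arrays. The mutants left without mutant 2 had RNA indices above every control. On the deposited scaling the 4 adjusted p-values were 0.0516, 0.0762, 0.172 and 0.0949 (limma).

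Of 12 male-biased targets of growth hormone 1 fell, Mup3, a major urinary protein (-8.77, adjusted p = 0.00208, limma), 8 had a lower mean at an unadjusted p below 0.05, and the median was -3.27. The controls themselves spread widely in this list: the P450 Cyp4a12a had 10.52, 6.94 and 4.92 in controls and at most 0.26 in mutants, below background (at least 21.3-fold lower, adjusted p = 0.0932). That bound was 7.38-fold without control 1 and 51.5-fold without control 3. Nudt7, a peroxisomal hydrolase, had -3.20 (adjusted p = 0.0757) and Cyp2u1 lay at least 8.49-fold lower in mutants, under their background estimate (adjusted p = 0.165). Of 11 female-biased targets 2 rose, Sult1e1, estrogen sulfotransferase (at least 116-fold, adjusted p = 0.0129), and Abcc4, an efflux transporter (2.69, adjusted p = 0.0363), with a median of -0.04. In this list 3 higher and 2 lower genes had an unadjusted p below 0.05. The lower ones include Hao2, a peroxisomal hydroxyacid oxidase named here after its values were seen, at -4.30 with all mutants below all controls (adjusted p = 0.352). Abcc4 did not pass without control 1, 2 or 3 or without mutant 3, nor on the deposited scaling (adjusted p = 0.0503). Sult1e1 did not pass without control 1 or 2, and its bound was 74.2-fold without mutant 3. Acot3, an acyl-CoA thioesterase, had 1.78 (adjusted p = 0.329) and Atp6v0d2, a proton pump subunit, had -1.02 (adjusted p = 0.334).

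**Figure D5:**
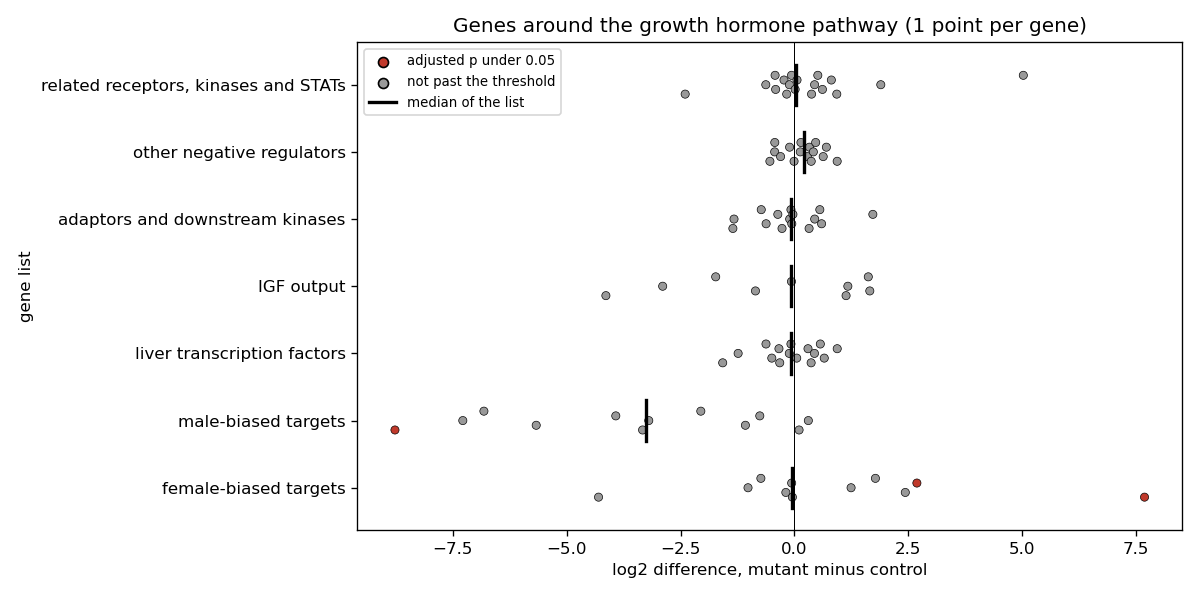
Log2 difference, mutant minus control (horizontal axis), of each tested gene in 7 lists (vertical axis), with the list median as a bar; red points have an adjusted p under 0.05 (limma). The male-biased targets have a median of -3.27 and the other 6 lists have medians between -0.08 and 0.22.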

How the data were processed

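Liver RNA of 6 male mice, 1 array each, was prepared with the one-cycle labelling of Affymetrix (per the labels' protocols). The deposited table holds 1 linear intensity per probe set and array. Per the submitters' processing notes, GCOS produced these signals. Its algorithm, version, scaling and genome build: not given in the sources used here. The number of arrays, 3 per group, limits the precision.

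The trimmed mean (2% at each end) ran from 37.3 to 69.9, so each array was scaled to their mean. Such scaling hides a difference shared by most transcripts. Scaled signals below 1 were raised to 1 before the log2. Dim probe sets, the 40% with mean log2 signals under 2.10, did not enter the fit. The background estimate is the 95th percentile of the group means of 83 probe sets of olfactory, vomeronasal and taste receptors, and a fold against a lower mean is given as a bound on the mean of 3 arrays. Mutants and controls were compared with limma 3.58.1 in R 4.3.3 (lmFit, eBayes with trend, two-sided, Benjamini-Hochberg adjustment); the steps were tested on simulated data. Symbols were updated through Entrez identifiers, and probe sets ending in s_at or x_at can detect related transcripts.

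The members and lists were chosen with earlier results of these data known. Named genes are all members, the up to 4 genes of each list with the smallest adjusted p, and the 3 genes nearest in pattern to the member gene with the smallest p, Ghr; Hnf4a, Hao2 and the acute phase genes were chosen after their values were seen. Alternatives changed the scaling, the filter, the variance prior, the log offset, a covariate, the replicate block, the probe set of a gene and each array in turn. Whether the labels' numbers pair the mice is not known here. Promoter sequences are from RefSeq.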

Additional observations from a re-analysis of the deposited data

How the results depend on the processing

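The count of member probe sets past the threshold was 0 under each scaling, filter, variance prior, offset and covariate tried, and 0 to 2 with each array left out, with the 2 without mutant 2. With the replicate number as a block it was 0, and the list count was 3 with other members: Abcc4 was lost (adjusted p = 0.0667) and Igf1 passed (0.0415), which made 1 higher and 2 lower. The correlations of same-numbered arrays' deviations were -0.04, 0.02 and 0.04, and those of other pairs ran from -0.10 to 0.08. With 3 arrays per group these values cannot decide whether the numbers pair the mice. The count of list genes past the threshold, 3, was 2 on the deposited scaling, 9 after log2(signal + 32), 0 with no filter (where 13 were higher and 15 lower by limma's unadjusted p below 0.05), 1 with a constant variance prior, 1 after adjustment for the RNA index, and 1 to 11 with each array left out. Mup3 was lost only with no filter (adjusted p = 0.0708). Abcc4 was lost with no filter (0.223), with a constant variance prior (0.105) and after the RNA index adjustment (0.221), and Sult1e1 in the same 3 settings (0.223, 0.0666 and 0.0999). The difference of the RNA index, 0.67, was 0.41 to 0.91 with each array left out and 0.58 with the middle control probe sets. Some signs turned. On the deposited scaling Jak2 (1421066_at) had -0.029 and Stat5a (1421469_a_at) -0.32, and with median centring Stat5a had -0.10. After adjustment for the RNA index Stat5a had -0.45, Stat5b 0.33 and 0.11, Socs2 (1442586_at) -0.31, Socs3 -1.15 and -0.38, Ptpn2 -0.42, Pik3r1 0.44 and Cebpb -0.050. Averaging each gene's probe sets gave Jak2 -0.024 and Stat5a -0.043. With each array left out Cish ran from -0.54 to 0.49, Stat5a from -0.21 to 0.46, Stat5b (1422103_a_at) from -0.28 to 0.19 and Jak2 (1421065_at) from -0.93 to 0.45. The cause was not tested. Ghr kept its sign in each of these settings. Signal near background limits Socs1, the dim Socs2 probe sets, Socs3 on 1416576_at and Bcl6 on 1450381_a_at.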

Other observations

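Genes of the acute phase response, several of which are known targets of interleukin-6 and STAT3 as Socs3 is, were looked at beside Socs3 after its values had been seen. None of 10 passed (limma), while 1 higher and 0 lower genes had an unadjusted p below 0.05. Lcn2, a siderophore-binding protein, had log2 signals of 6.48, 6.65 and 6.64 in controls, and mutants 1 to 3 had 10.06, 7.37 and 5.45. Saa1, a serum amyloid protein on a shared probe set, had 8.53, 8.03 and 7.62 in controls against 11.18, 7.11 and 3.70 in mutants, so mutant 1 was the highest and mutant 3 the lowest of the 6 arrays. Orm2, an orosomucoid, had 11.08 in mutant 1 and at most 6.0 on any other array. Stat3 itself had 8.53, 8.58 and 8.76 in controls and 10.59, 9.05 and 8.67 in mutants. In mutant 3 Saa1, Saa2, Saa3, Lcn2, Orm1 and Orm2 were below every control, while Hp was above every control. Fgg, Fgb and Itih4 lay inside the control range there. Hp was the gene with an unadjusted p below 0.05 (log2 difference 0.59, adjusted p = 0.334, limma), with all mutants above all controls after scaling. On the deposited signals Hp had 5151, 5746 and 5137 in controls and 6064, 6578 and 5074 in mutants. There Hp, Fgg, Fgb and Itih4 of mutant 3 were each below every control. Socs3 signals of mutant 3 were above the controls, and their relation to these genes was not tested.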
